A study of Mus musculus with 5 samples.

Results

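The Cyp2 family is the largest family of cytochrome P450 genes in the mouse. Its members were taken as every probe on the arrays whose accession, without its version, maps to a mouse symbol that starts with Cyp2 and a letter. This gave 45 genes of the 19752 named on the array, in 14 subfamilies and with 58 probes. Of these genes, 39 in 12 subfamilies could be tested, through 49 probes whose signal stood clear of background in 1 of the channels on 3 or more arrays. The other 6 (Cyp2ab1, Cyp2b19, Cyp2b23, Cyp2c65, Cyp2j11 and Cyp2w1) had a probe that did not reach this level: in 4 of them neither channel was clear of background on any array, and in Cyp2j11 and Cyp2w1 only the control channel was, on 1 array. A RefSeq gene table lists 71 Cyp2 genes, and the 26 without a probe named here, among them the coding genes Cyp2a5, Cyp2c40, Cyp2c69 and Cyp2j12, were not analysed here.

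Liver RNA came from Fra-1hep mice, which overexpress the AP-1 subunit Fra-1 in hepatocytes, and from wild-type controls. Both groups were C57BL/6J, 26 to 28 weeks old, and had been fed from 4 weeks of age with chow in which fat supplied 45% of the calories. On each of 4 two-colour arrays, 1 Fra-1hep mouse (Cy5) was set against a pool of 5 control mice (Cy3), and on 1 further array the control pool was in Cy5 and a Fra-1hep pool in Cy3. The labels give neither the sex of the mice, nor how the transgene is driven, nor which mice formed the Fra-1hep pool. If it held the same 4 mice, the swapped array adds no animals. Every value below is a log2 ratio of Fra-1hep over control, with the sign of the swapped array turned so that a positive value is higher in Fra-1hep liver on all arrays.

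Cyp2 enzymes are haem proteins of the endoplasmic reticulum that take electrons from the reductase Por and oxidise small lipophilic molecules. The liver uses them on drugs and toxicants, on steroids and bile acids, and on fatty acids such as arachidonic acid, which members of the 2c and 2j subfamilies turn into epoxides. In hepatocytes the receptors CAR (Nr1i3) and PXR (Nr1i2) switch on several Cyp2b and Cyp2c genes in response to foreign compounds, while growth hormone sets different levels of others in males and females. Most subfamilies lie in gene clusters made by repeated duplication, so neighbours can be close in sequence and a probe meant for one may read another. The arrays compare 1 probe between groups, and no level of one probe is set against that of another.

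Spots well above background made up 47.2% to 54.7% of each array in Cy5 and 47.7% to 61.5% in Cy3, and 0 spots were saturated. All 10 hepatocyte marker genes were above background in both groups on all 5 arrays, with fitted changes between -0.58 and 0.41; 2 rose and 1 fell. The very abundant Apoa2, Ttr, Alb and Serpina1a were at 0.40 to 1.09 in the mice and at -0.80 to -0.22 in the swapped pool, a split described below for bright spots. The only probe of Fosl1, the gene for Fra-1, was above background in the Fra-1hep channel on 0 arrays and in the control channel on 1, with ratios of -0.37, -0.23, 0.11 and 0.12 (mice 1 to 4) and -0.09 (swapped pool), so it did not check the labels. Mouse 1 was hybridised on a slide of its own and the other arrays shared 1 slide. All ratios share the RNA of the control pool, so arrays can also resemble each other through it.

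Promoter sequences are shown for 6 genes because these carry the largest changes in the family and the sharpest contrast within a subfamily. Each runs from 250 bases before to 50 bases after the annotated start, in the direction of the gene, and is credited to RefSeq on GRCm38.p6. The first set holds the 3 genes with the largest rises, all in the 2c cluster. Capitals mark the letters TATAAA and, in Cyp2c29, also AGGTCA, the half-site that many nuclear receptors bind. Cyp2c55 lies at chr19:39006769-39007068 on the plus strand, Cyp2c29 at chr19:39286835-39287134 on the plus strand, and Cyp2c38 at chr19:39463026-39463325 on the minus strand.
Cyp2c55: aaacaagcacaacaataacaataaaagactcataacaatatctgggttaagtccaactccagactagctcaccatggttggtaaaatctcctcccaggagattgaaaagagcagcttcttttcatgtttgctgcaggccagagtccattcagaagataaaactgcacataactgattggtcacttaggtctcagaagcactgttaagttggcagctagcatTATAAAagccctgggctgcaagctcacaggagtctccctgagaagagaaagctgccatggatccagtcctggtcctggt
Cyp2c29: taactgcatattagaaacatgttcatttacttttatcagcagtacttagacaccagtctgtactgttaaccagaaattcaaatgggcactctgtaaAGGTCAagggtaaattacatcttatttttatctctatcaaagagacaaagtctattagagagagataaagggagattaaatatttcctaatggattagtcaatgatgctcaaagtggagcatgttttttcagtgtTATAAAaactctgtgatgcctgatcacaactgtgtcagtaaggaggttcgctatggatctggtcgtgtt
Cyp2c38: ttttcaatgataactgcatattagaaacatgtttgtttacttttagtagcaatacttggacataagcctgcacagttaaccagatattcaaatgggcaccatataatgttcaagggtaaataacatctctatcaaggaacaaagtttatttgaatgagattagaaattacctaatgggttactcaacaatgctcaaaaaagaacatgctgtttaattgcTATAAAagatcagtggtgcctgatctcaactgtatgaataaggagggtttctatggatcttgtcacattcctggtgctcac

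The second set holds the 3 tested Cyp2b genes, of which 2 fell and 1 did not pass. In Cyp2b9 and Cyp2b13, capitals mark the bases at which these promoters differ from each other; in Cyp2b10, they mark bases that are not matched by the same base of Cyp2b9 in a global alignment. Cyp2b9 lies at chr7:26173159-26173458, Cyp2b13 at chr7:26061245-26061544 and Cyp2b10 at chr7:25897408-25897707, all on the plus strand.
Cyp2b9: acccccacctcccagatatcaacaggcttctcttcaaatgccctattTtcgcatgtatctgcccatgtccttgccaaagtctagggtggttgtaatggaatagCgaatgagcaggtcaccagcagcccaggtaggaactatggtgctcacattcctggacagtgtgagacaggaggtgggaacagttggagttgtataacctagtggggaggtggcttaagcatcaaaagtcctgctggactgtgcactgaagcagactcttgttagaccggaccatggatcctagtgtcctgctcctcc
Cyp2b13: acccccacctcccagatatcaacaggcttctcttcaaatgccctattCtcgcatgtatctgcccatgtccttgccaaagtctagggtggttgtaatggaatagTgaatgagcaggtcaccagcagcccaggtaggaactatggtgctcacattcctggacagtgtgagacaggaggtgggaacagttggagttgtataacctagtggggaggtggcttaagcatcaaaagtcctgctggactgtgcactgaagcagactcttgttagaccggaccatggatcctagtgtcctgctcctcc
Cyp2b10: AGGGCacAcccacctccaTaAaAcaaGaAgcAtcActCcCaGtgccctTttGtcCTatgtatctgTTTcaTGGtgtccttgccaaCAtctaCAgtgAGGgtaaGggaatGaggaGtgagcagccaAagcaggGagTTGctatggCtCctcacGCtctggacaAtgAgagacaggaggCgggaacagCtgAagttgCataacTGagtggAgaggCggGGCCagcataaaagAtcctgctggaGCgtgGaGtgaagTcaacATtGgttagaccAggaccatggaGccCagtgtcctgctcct

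Of the 39 tested Cyp2 genes, 10 were higher in Fra-1hep liver, 4 were lower and 25 did not pass an adjusted p of 0.05. The share called was 35.9%, against 26.6% of all 21493 features tested. In separate directions, 25.6% of the Cyp2 genes were higher against a background of 11.2%, and 10.3% were lower against 15.4%; the difference from the background was not tested. The median fitted change of the Cyp2 genes was 0.04, beside -0.003 over all features. Among the 14 called genes, 12 had 1 sign on all 5 arrays, and 5 changed by more than 2-fold: Cyp2c55, Cyp2c38 and Cyp2c29 rose, and Cyp2b10 and Cyp2b9 fell. A fitted change is given with its standard error, which reflects the spread of the 4 mice and leaves out the spread among control mice. When a control spread as large as that of the Fra-1hep mice was added, 9 of the 14 calls passed.

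**Figure D1:**
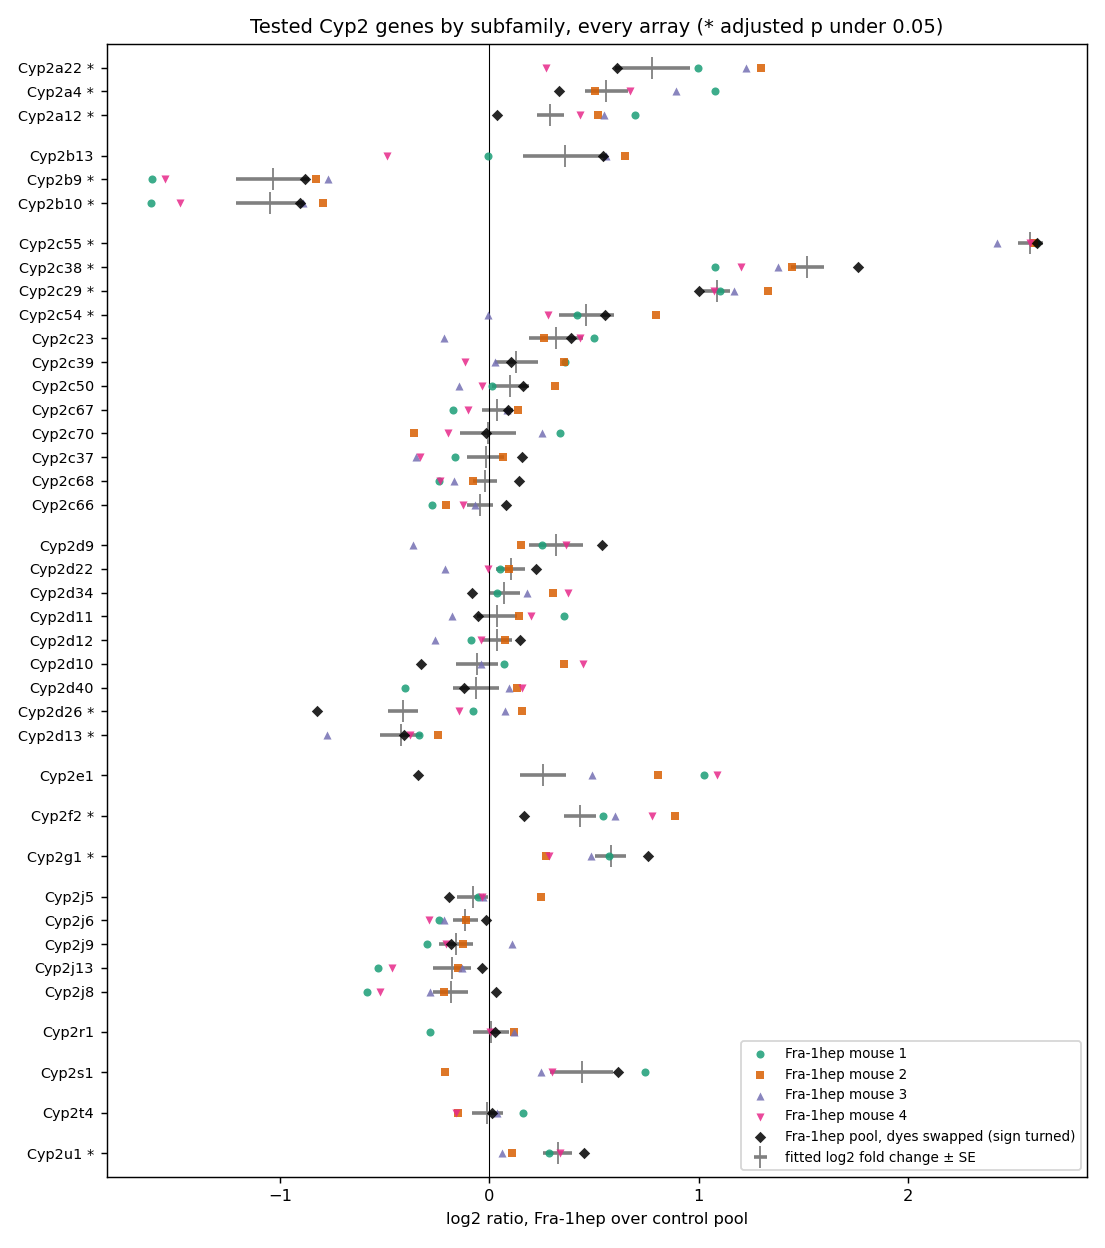
Log2 ratio of Fra-1hep over control (x axis) for the 39 tested Cyp2 genes, grouped by subfamily and ordered by fitted change. Coloured points are the 4 Fra-1hep mice, black diamonds the swapped array with its sign turned, and grey bars the fitted change ± SE; Cyp2c55 stands to the right at 2.42 to 2.62 and Cyp2b10 and Cyp2b9 to the left at -1.62 to -0.77.

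The 2c subfamily held the largest rises, with 4 of 12 tested genes higher, 0 lower and 8 not passing. Cyp2c55, an arachidonic acid hydroxylase that CAR and PXR activators induce in mouse liver, had log2 ratios of 2.61, 2.60, 2.42 and 2.58 (mice 1 to 4) and 2.62 (swapped pool). All 5 arrays lay far above 0 and within a narrow band. Its fitted change was 2.58 ± 0.06, which is 6.00-fold (adjusted p = 2.77e-06). The size depended on the processing: it was 2.94 with a background offset of 0 and 3.17 with the scanner's own ratios. Cyp2c29, another CAR-inducible arachidonic acid epoxygenase, gave 1.10, 1.33, 1.17 and 1.08 (mice 1 to 4) and 1.00 (swapped pool). These arrays also agreed closely, and the fitted change of 1.09 ± 0.07 was 2.12-fold (adjusted p = 0.000108). Cyp2c38, an epoxygenase that is close to Cyp2c39 in sequence, is represented by its brighter probe. That probe read 1.08, 1.45, 1.38 and 1.2 (mice 1 to 4) and 1.76 (swapped pool), highest in the pool and lowest in mouse 1. It was fitted at 1.52 ± 0.08, or 2.87-fold (adjusted p = 6.26e-05), but a second probe of this gene went the other way, as described with the probe pairs.

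Cyp2c54, a further epoxygenase, had the smallest rise called in the subfamily. Its ratios were 0.42, 0.79, -0.006 and 0.28 (mice 1 to 4) and 0.55 (swapped pool), so mouse 3 lay at 0 while the other 4 arrays were higher. The fitted change was 0.46 ± 0.13 (adjusted p = 0.0407). Leaving out mouse 1 or mouse 4 ended this call, with adjusted p-values of 0.0671 and 0.0719. The genes next to Cyp2c54 in the 2c cluster did not pass: Cyp2c37 was fitted at -0.02 ± 0.09 and Cyp2c50 at 0.10 ± 0.09, although CAR activators can induce both. Cyp2c39, a retinoic acid hydroxylase, was fitted at 0.13 ± 0.10 (adjusted p = 0.385). Cyp2c70, which makes the muricholic acids of rodent bile, was fitted at -0.005 ± 0.13, with mice on either side of 0 (0.34, -0.36, 0.25 and -0.20 (mice 1 to 4) and -0.02 (swapped pool)).
Cyp2c23, a fatty acid epoxygenase best known from kidney, had ratios of 0.50, 0.26, -0.22 and 0.43 (mice 1 to 4) and 0.39 (swapped pool). Only mouse 3 was below 0, and its fitted change of 0.32 ± 0.13 missed the threshold (adjusted p = 0.114) but passed without mouse 3 (0.0163). The remaining 2c genes, Cyp2c66, Cyp2c67 and Cyp2c68, were fitted at -0.05, 0.04 and -0.02, with adjusted p-values of 0.616 or more; Cyp2c66 was above background on 1 array in the Fra-1hep channel and on 3 in the control channel.

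All 3 tested 2a genes were higher. Cyp2a4, a testosterone hydroxylase that is higher in female than in male mouse liver, gave 1.08, 0.51, 0.89 and 0.67 (mice 1 to 4) and 0.33 (swapped pool). Every array was above 0, and the fitted change was 0.56 ± 0.10 (adjusted p = 0.00965). Cyp2a22 gave 1.00, 1.30, 1.22 and 0.27 (mice 1 to 4) and 0.61 (swapped pool), which puts mouse 4 well below the other mice. It was fitted at 0.78 ± 0.18 (adjusted p = 0.0197), and the call ended in 4 of 16 alternatives, with adjusted p-values of 0.0501 to 0.163. Cyp2a12, which hydroxylates steroids and bile acids, gave 0.70, 0.52, 0.55 and 0.43 (mice 1 to 4) and 0.04 (swapped pool), so the mice were clearly above 0 and the pool was close to it. Its fitted change was 0.29 ± 0.06 (adjusted p = 0.0175), and without the swapped array it was 0.55; the call ended with control spread added (adjusted p = 0.0616).

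The 2b genes gave unlike values. Cyp2b10, the classical target of CAR in mouse liver, had log2 ratios of -1.62, -0.80, -0.89 and -1.48 (mice 1 to 4) and -0.91 (swapped pool). All arrays were below 0, and mice 1 and 4 were the lowest. The fitted change was -1.05 ± 0.16, 2.07-fold lower (adjusted p = 0.00449). Cyp2b9, which is higher in female than in male mouse liver, gave nearly the same ratios, -1.61, -0.83, -0.77 and -1.55 (mice 1 to 4) and -0.88 (swapped pool). It was fitted at -1.04 ± 0.17, 2.05-fold lower (adjusted p = 0.00642). Cyp2b13, the third tested member and likewise female-predominant, gave -0.008, 0.65, 0.56 and -0.49 (mice 1 to 4) and 0.54 (swapped pool). The mice fell on both sides of 0 with mouse 4 the lowest, and the fitted change of 0.36 ± 0.20 did not pass (adjusted p = 0.226).

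Cyp2b13 was above Cyp2b9 on every array, by 1.06 to 1.60, with a mean difference of 1.37 ± 0.23 (SD, n = 4 mice). Cyp2b13 and Cyp2b10 differed by 1.37 ± 0.27 (SD, n = 4 mice), and Cyp2b10 and Cyp2b9 by -0.006 ± 0.083 (SD, n = 4 mice). These pairs were picked after their values were seen, so the differences are given without a test. On no array were Cyp2b10 and Cyp2b9 more than 0.12 apart. The promoters show another order of likeness: those of Cyp2b9 and Cyp2b13 are identical at 298 of 300 bases (99.3%), and those of Cyp2b9 and Cyp2b10 at 76.3%. Probe sequences were not analysed here, so whether the Cyp2b9 probe also reads Cyp2b10 RNA was not tested.

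**Figure D2:**
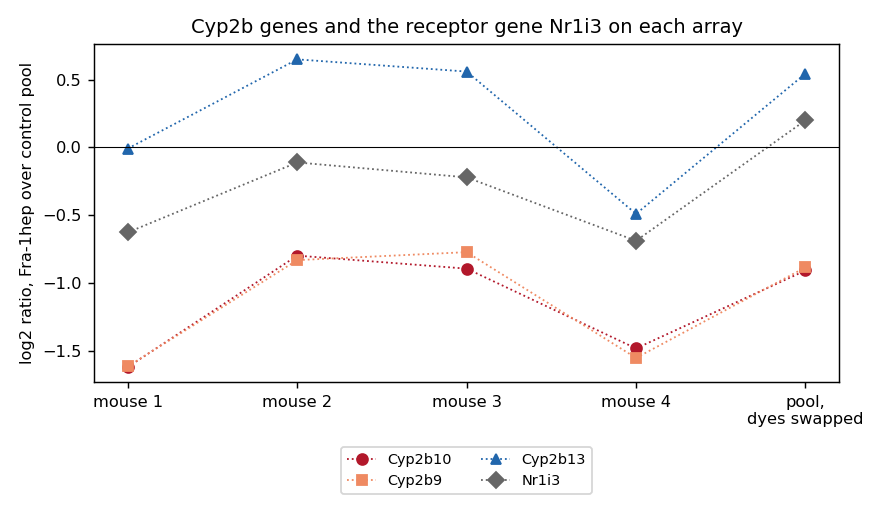
Log2 ratio of Fra-1hep over control (y axis) on each of the 5 arrays (x axis) for the 3 tested Cyp2b genes and for Nr1i3, the gene for the receptor CAR. Dotted lines only join the points of 1 gene. Cyp2b10 and Cyp2b9 stay within 0.12 of each other, and Cyp2b13 lies 1.06 to 1.60 above Cyp2b9. All 4 genes are lowest in mice 1 and 4, as are Cyp2j8 and Cyp2j13 (not shown).

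In the 2d subfamily, 2 of 9 tested genes were lower, 0 were higher and 7 did not pass. Cyp2d13 is annotated as a transcribed pseudogene, so its RNA is not that of a coding P450 gene. It gave -0.34, -0.25, -0.78 and -0.38 (mice 1 to 4) and -0.41 (swapped pool), below 0 on all arrays and lowest in mouse 3. The fitted change was -0.42 ± 0.10 (adjusted p = 0.022), and the call ended in 5 of 16 alternatives, with adjusted p-values of 0.0516 to 0.665. Cyp2d26 gave -0.08, 0.16, 0.07 and -0.15 (mice 1 to 4) and -0.82 (swapped pool): the mice straddled 0 and the pool alone was lower. Its fitted change of -0.41 ± 0.07 (adjusted p = 0.0075) thus came from the swapped array, and without that array the value was 0.001. Cyp2d9, a testosterone hydroxylase that growth hormone keeps high in males, gave 0.25, 0.15, -0.36 and 0.36 (mice 1 to 4) and 0.54 (swapped pool). Mouse 3 was the exception below 0; the fitted change of 0.32 ± 0.13 missed the threshold (adjusted p = 0.11) and passed without mouse 3 (0.0144). Cyp2d22, which is regarded as the mouse counterpart of human CYP2D6, was fitted at 0.10 ± 0.07. The remaining members Cyp2d10, Cyp2d11, Cyp2d12, Cyp2d34 and Cyp2d40 lay between -0.07 and 0.07 and did not pass.

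The single members of other subfamilies included 3 that were higher. Cyp2f2, known for bioactivating naphthalene in lung club cells and for its periportal expression in liver, gave 0.54, 0.89, 0.60 and 0.78 (mice 1 to 4) and 0.17 (swapped pool). It was higher on every array, most in mouse 2 and least in the pool, with a fitted change of 0.43 ± 0.08 (adjusted p = 0.00805), which was 0.70 without the swapped array. Cyp2g1, best known from olfactory mucosa, gave 0.57, 0.27, 0.49 and 0.29 (mice 1 to 4) and 0.76 (swapped pool), again all above 0. Its fitted change was 0.58 ± 0.07 (adjusted p = 0.00244), or 0.90 with the scanner's own ratios. Cyp2u1, a fatty acid hydroxylase, gave 0.29, 0.11, 0.06 and 0.34 (mice 1 to 4) and 0.45 (swapped pool), with mouse 3 near 0. It was fitted at 0.33 ± 0.07 (adjusted p = 0.0163). Without the swapped array the value was 0.197 and with the scanner's own ratios 0.627, and the call ended with control spread added (adjusted p = 0.0581).

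Cyp2e1, the ethanol- and acetone-oxidising enzyme of pericentral hepatocytes, gave 1.03, 0.81, 0.49 and 1.09 (mice 1 to 4) and -0.34 (swapped pool). All 4 mice were above 0 and the pool was below. The fitted change of 0.25 ± 0.11 did not pass (adjusted p = 0.134). Without the swapped array it was 0.85 (adjusted p = 0.00105), and with that array counted like the mice and no dye term it was 0.61 (adjusted p = 0.0422). It also passed without mouse 3, at 0.31 (adjusted p = 0.0376). A second probe of Cyp2e1 showed the same split, with mice at 0.42 to 0.83 and the pool at -0.04.

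In class medians, this split between mice and swapped pool was seen in the brightest spots. Among all features with a mean log2 signal of 16 or more (n = 152), the median ratio was 0.49 over the mice and -0.51 on the swapped array, whereas the medians of dimmer classes stayed between -0.08 and 0.06. The 5 Cyp2 genes in the bright class are Cyp2e1, Cyp2d26, Cyp2a4, Cyp2f2 and Cyp2d11, and their median ratios were 0.70 over the mice and -0.06 on the swapped array. Their fitted change is the mean of both orientations, which were furthest apart for Cyp2e1 and closest for Cyp2d11. Single dimmer genes were split too. Cyp2d10 (mean log2 signal 15.9) was at 0.21 over the mice and -0.33 in the pool, and Cyp2a12 (15.5) at 0.55 and 0.04. Cyp2j8 (12.6) went the other way, at -0.40 over the mice and 0.03 in the pool. A dye effect and a difference between the Fra-1hep pool and the mice cannot be told apart, since each dye orientation holds its own samples.

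**Figure D3:**
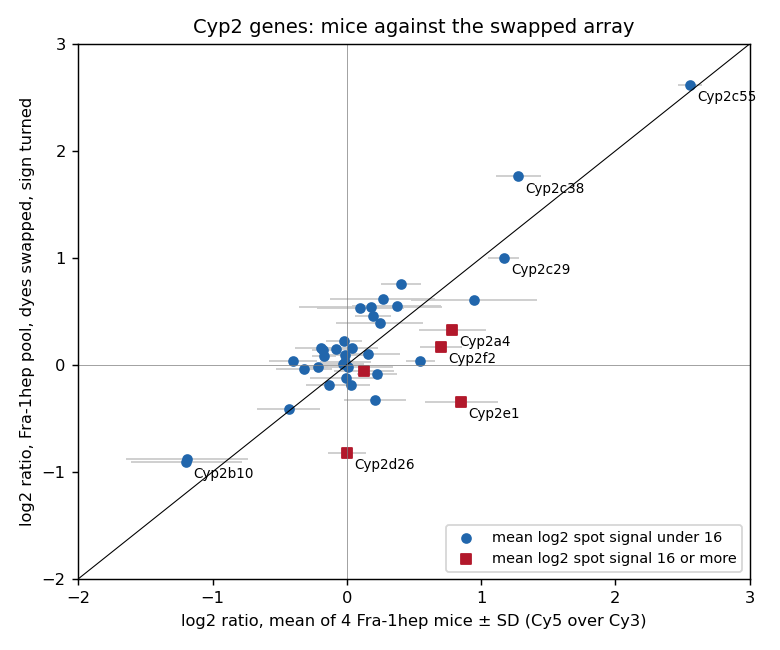
Log2 ratio on the swapped array with its sign turned (y axis) against the mean of the 4 Fra-1hep mice ± SD (x axis) for the 39 tested Cyp2 genes. Red squares are genes with a mean log2 spot signal of 16 or more, which lie below the line of equal values; Cyp2c55 lies close to that line, at 2.55 for the mice and 2.62 for the pool.

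In the 2j subfamily, whose members make arachidonic acid epoxides, all 5 tested genes had fitted changes between -0.19 and -0.08, and 0 passed with limma (0 also at an unadjusted p of 0.05). Cyp2j8 gave -0.59, -0.22, -0.28 and -0.52 (mice 1 to 4) and 0.03 (swapped pool) and Cyp2j13 gave -0.53, -0.15, -0.13 and -0.47 (mice 1 to 4) and -0.04 (swapped pool). In both genes mice 1 and 4 were the lowest and the pool was near 0. Without the swapped array Cyp2j8 (-0.40, adjusted p = 0.00629), Cyp2j13 (-0.32, adjusted p = 0.0224) and Cyp2j6 (-0.21, adjusted p = 0.0176) passed. Cyp2j5 and Cyp2j9 were fitted at -0.08 ± 0.07 and -0.16 ± 0.08.

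Cyp2r1, a vitamin D hydroxylase, was fitted at 0.007 ± 0.09 and Cyp2t4 at -0.009 ± 0.08, both with ratios on either side of 0. Cyp2s1, an enzyme of epithelia outside the liver, gave 0.74, -0.21, 0.25 and 0.30 (mice 1 to 4) and 0.61 (swapped pool). Mouse 2 was below 0 and the others above; the fitted change of 0.44 ± 0.15 did not pass (adjusted p = 0.073) and did so without mouse 2 (0.52, adjusted p = 0.0146). Krt19, a keratin of bile duct cells, was likewise highest in mouse 1 and the pool and lowest in mouse 2, with 0.88, -0.40, 0.30 and 0.26 (mice 1 to 4) and 0.67 (swapped pool) (fitted 0.47 ± 0.20, adjusted p = 0.126). Of 7 tested cholangiocyte markers 1 rose, 0 fell and the range was -0.29 to 0.47; their part in the Cyp2s1 ratios was not tested. In whole-liver RNA, fewer cells of a type and less RNA per cell cannot be told apart.

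More than 1 kept probe was present for 9 Cyp2 genes, which gave 10 pairs of a gene's brightest probe with another. Over all named genes, 817 of 3890 such pairs (21%) differed at an adjusted p of 0.05, and 1 of the 10 Cyp2 pairs did. That pair belongs to Cyp2c38. Its dimmer probe gave -1.17, -0.44, -0.15 and -0.43 (mice 1 to 4) and -0.71 (swapped pool), below 0 on every array, where the brighter probe was above 1 on every array. The fitted values were -0.63 ± 0.16 (adjusted p = 0.0304 over all kept probes) and 1.52 ± 0.08, and their difference was 2.15 ± 0.11 (adjusted p = 6.71e-06). Over the whole array, 14 genes had probes called in opposite directions.

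The direction of Cyp2c38 therefore depends on the probe, and the rise above describes the brighter one only. That probe's ratios resembled those of Cyp2c29 in the mice, within 0.21 on each array, and were 0.76 higher in the swapped pool. The Cyp2c38 promoter is most like that of Cyp2c39 (82.0% identical bases of 300) and is 75.3% identical to that of Cyp2c29. Which transcripts either probe reads was not tested.

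The probes of other genes lay closer together. Both Cyp2a4 probes rose, at 0.56 and 0.58. The Cyp2a5 promoter is 98.0% identical to that of Cyp2a4, but promoter likeness does not show what a probe reads. Whether the Cyp2a4 probes also read Cyp2a5, a coumarin hydroxylase with no probe named here, was not tested. For Cyp2c54 the 3 probes gave 0.46, 0.27 and 0.61, the middle one not passing. The Cyp2d34 probes read 0.07 and 0.42 (difference -0.35 ± 0.12, adjusted p = 0.0612). In fitted values, the pairs of Cyp2c37, Cyp2c67, Cyp2e1, Cyp2j6 and Cyp2r1 differed by 0.16 or less. On single arrays these pairs were further apart, by up to 0.67 for Cyp2c67, 0.44 for Cyp2c37, 0.34 for Cyp2e1, 0.25 for Cyp2r1 and 0.23 for Cyp2j6. The median of this largest difference over all pairs on the array was 0.33. Further pairs with promoters at least 89.0% identical were Cyp2c68 with Cyp2c69 (92.3%), Cyp2c40 with Cyp2c69 (89.0%) and Cyp2d11 with Cyp2d9 (89.0%). Whether a probe for one gene of such a pair reads the other was not tested.

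**Figure D4:**
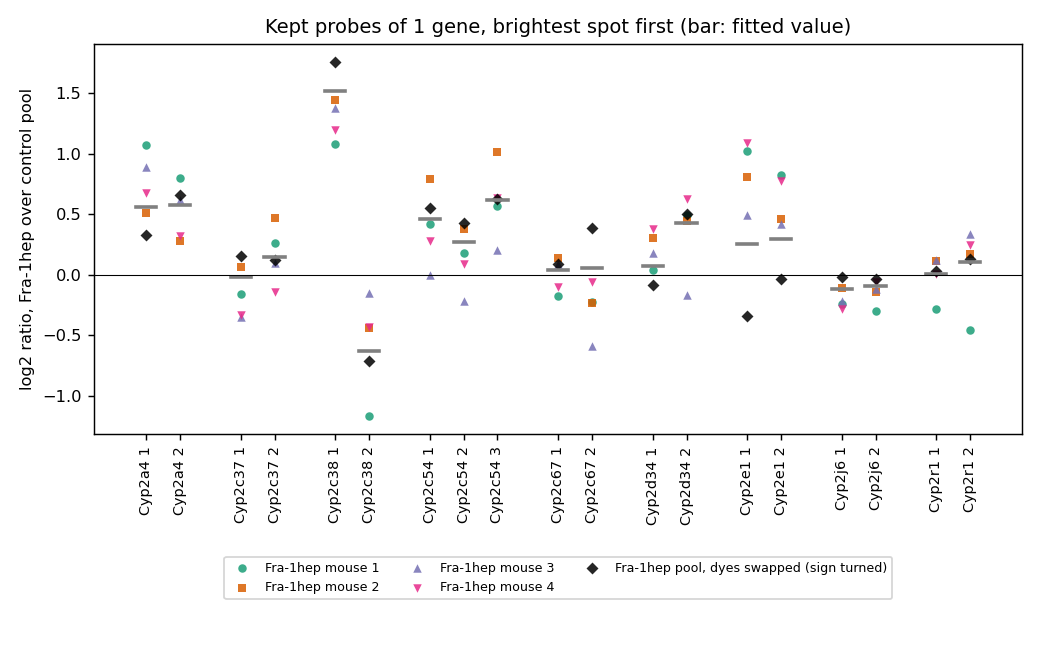
Log2 ratio of Fra-1hep over control (y axis) on each array for every kept probe of the 9 Cyp2 genes with more than 1 (x axis, numbered from the brightest). Coloured points are mice, black diamonds the swapped array with its sign turned, and grey bars the fitted value; the Cyp2c38 probes lie on opposite sides of 0, at 1.52 and -0.63.

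Along the chromosomes, calls of both directions occurred on chromosome 7. Of its 12 tested Cyp2 genes, 5 were higher (Cyp2a4, Cyp2g1, Cyp2a22, Cyp2a12 and Cyp2f2) and 2 were lower (Cyp2b10 and Cyp2b9). Cyp2b9 and Cyp2a4 follow each other among the Cyp2 genes there and had opposite calls. On chromosome 19, which carries the 2c genes, 4 of 12 were higher and 0 lower, and genes that did not pass lay between them. Chromosome 15, with the 2d genes, had 2 of 9 lower, among them the pseudogene Cyp2d13. Chromosome 4, with the 2j genes, had 0 of 5 called.

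**Figure D5:**
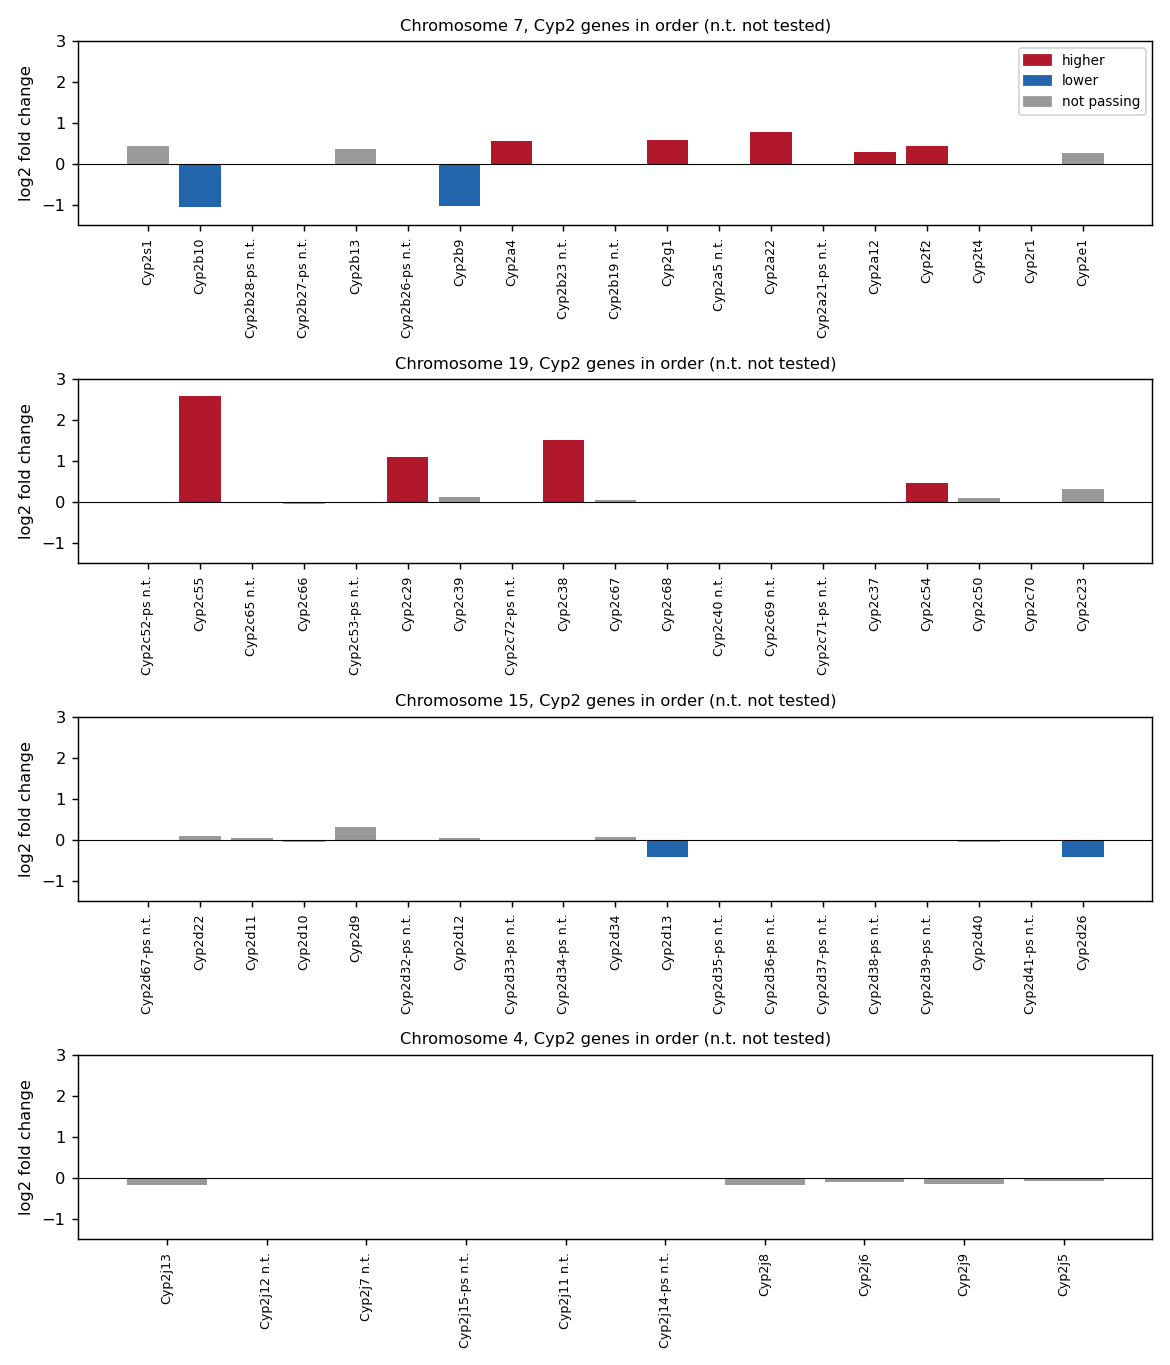
Fitted log2 fold change (y axis) of Cyp2 genes in their order along chromosomes 7, 19, 15 and 4 (x axis, 1 place per gene, not to genomic scale). Red bars are higher, blue lower and grey not passing; n.t. marks genes not tested, and short bars are values near 0.

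Promoters were available for 41 Cyp2 genes (43 promoters), among them 7 of the 10 higher and 3 of the 4 lower genes. The AP-1 motif TGANTCA, which Fra-1 binds with a JUN partner, was searched on both strands and found in 1 of the 43 (2.33%), against 7.81% of 32851 mouse promoters of the same length. The 1 match was in Cyp2c70, which did not pass, and 0 of the 10 promoters of called genes held these letters. AGGTCA, on either strand, was present in 30.2% of Cyp2 promoters and 16.3% of all. In Cyp2b9 and Cyp2b13 it starts 138 bases before the start, and in Cyp2c29 154 bases before it. TATAAA, read on the strand of the gene, was present in 34.9% of Cyp2 promoters and 8.32% of all. It was found in 6 of 7 promoters of higher genes, all but Cyp2f2, and in 0 of 3 of lower genes. Those 6 are all 2a or 2c genes, and no Cyp2b promoter held the letters, so related genes are counted together. Among promoters of all tested genes the share was 33.3%, with Cyp2c66, Cyp2c67 and Cyp2e1 among those that did not pass. A link with the direction of change was not tested. These motifs do not overlap one another in the promoters shown, and a match describes letters only.

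Partners of the P450s were found on both sides. Of 18 genes for electron donors and haem supply, 3 were higher, 4 lower and 11 did not pass, with a median of -0.02. This count, like those of the lists that follow, is to be read beside the 26.6% of all features that were called, 11.2% higher and 15.4% lower; no list was tested against that background. Por, the reductase that serves all Cyp2 enzymes, gave -0.04, -0.19, -0.002 and -0.21 (mice 1 to 4) and 0.10 (swapped pool), and its fitted value of -0.006 ± 0.06 did not pass (adjusted p = 0.956). Alas1, the rate-limiting enzyme of haem synthesis, ranged from -1.26 in mouse 2 to 0.81 in mouse 1 and was fitted at -0.48 ± 0.31 (adjusted p = 0.296). Cyb5r3, which reduces cytochrome b5, rose by 0.37 ± 0.08, and Ppox, an enzyme of haem synthesis, by 0.25 ± 0.05. Blvrb, a biliverdin reductase of haem breakdown, had a fitted change of -0.59 ± 0.09. Cyb5a, cytochrome b5 itself, was fitted at -0.33 ± 0.09, but the swapped pool (-0.85) and the mice (-0.06 to 0.39) disagreed. Among 25 genes that handle epoxides, aldehydes and alcohols, 3 were higher and 7 lower (median -0.09). By smallest p the first of them were the aldehyde dehydrogenase Aldh3a2 (-1.13 ± 0.06), the aldehyde oxidase Aox1 (-0.62 ± 0.05) and the alcohol dehydrogenase Adh4 (-0.54 ± 0.07) on the lower side and the monooxygenase Fmo1 (0.43 ± 0.06) on the higher.

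Of 28 regulators of Cyp2 genes, 2 were higher, 4 lower and 22 did not pass, with a median of -0.09. Nr1i2, the gene for PXR, was lower, with -0.57, -0.51, -0.61 and -0.18 (mice 1 to 4) and -0.14 (swapped pool) (fitted -0.31 ± 0.09, adjusted p = 0.0416). Nr1i3, the gene for CAR, gave -0.62, -0.11, -0.22 and -0.69 (mice 1 to 4) and 0.20 (swapped pool): the mice were below 0 and the pool above, and its fitted value of -0.11 ± 0.12 did not pass (adjusted p = 0.545). Its lowest arrays were mice 1 and 4, as for all 3 Cyp2b genes. The same held for Cyp2j8, Cyp2j13, the macrophage gene Cd5l and the endothelial gene Clec4g. In the swapped pool Nr1i3 was above 0, where Cyp2b10 and Cyp2b9 were below it. A link between Nr1i3 and the Cyp2b genes was not tested. Hnf4a, a factor that maintains many liver P450s, was fitted at -0.16 ± 0.07 (adjusted p = 0.133). The stress-responsive factors Cebpd (-0.84 ± 0.16) and Nfe2l2 (-0.27 ± 0.05) fell, although Nfe2l2 was at 0.03 in the pool.

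Targets of CAR and PXR outside the family were mostly lower where they passed: of 25 tested, 11 were lower, 2 higher and 12 did not pass (median -0.19). Cyp3a11, the main PXR-regulated P450 of mouse liver, gave -2.99, -2.21, -3.34 and -2.64 (mice 1 to 4) and -2.93 (swapped pool), and the uptake transporter Slco1a4 gave -2.13, -2.14, -1.64 and -2.10 (mice 1 to 4) and -2.14 (swapped pool). Both were low on all 5 arrays, with fitted changes of -2.86 ± 0.18 (adjusted p = 0.000133) and -2.07 ± 0.10 (adjusted p = 5e-05). The sulfate donor synthase Papss2 (0.79 ± 0.07) and the carboxylesterase Ces2c (0.57 ± 0.05) were higher. Within the Cyp2 family, genes known to respond to CAR were found on both sides, with Cyp2b10 lower and Cyp2c29 and Cyp2c55 higher.

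Genes of the growth hormone axis included 4 of 10 that were lower, 0 that were higher and 6 that did not pass (median -0.009), where 15.4% of all features were lower. The receptor gene Ghr was fitted at -0.38 ± 0.06, Igf1, its main hepatic product, at -0.53 ± 0.10, the signalling factor Stat5a at -0.34 ± 0.07 and the nuclear cofactor Trim24 at -0.71 ± 0.16. Of 12 tested female-predominant genes outside the family, 6 were lower and 1 higher (median -0.28). Cyp3a16 (-2.76 ± 0.17), Tox (-1.32 ± 0.12) and Rtn4 (-0.37 ± 0.09) were among the lower ones. Cyp3a16 gave -3.08, -2.17, -3.08 and -2.53 (mice 1 to 4) and -2.80 (swapped pool), close to the ratios of Cyp3a11 above. Whether the Cyp3a16 probe also reads Cyp3a11 RNA was not tested. Abcd2 was at least 2.32-fold lower (adjusted p = 0.00173), a bound because its Fra-1hep channel was above background on 0 arrays. Of 18 male-predominant genes, 6 were lower and 3 higher (median -0.16), with Elovl3 (-1.74 ± 0.18) and Ugt2b38 (-0.59 ± 0.06) among the lower ones. The complement genes of this list did not move together: C8b (1.36 ± 0.13) and C6 (1.27 ± 0.14) were higher, C8a (-0.59 ± 0.15) was lower and C9 did not pass. The Cyp2 genes described above as differing between the sexes showed no common direction. Of the female-predominant ones Cyp2a4 rose, Cyp2b9 fell and Cyp2b13 did not pass, and the male-predominant Cyp2d9 did not pass. Other Cyp2 genes were not classed by sex here. The Y-linked genes Ddx3y and Eif2s3y were above background in both groups on all 5 arrays, and 0 of 3 tested sex-linked genes passed with limma (0 also at an unadjusted p of 0.05), with fitted values of 0.11 ± 0.06 for Uty, 0.03 ± 0.07 for Ddx3y and -0.02 ± 0.06 for Eif2s3y.

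Zonation markers were also called in both directions. Pericentral genes included 6 lower, 3 higher and 10 not passing of 19 (median 0.02), among them Glul (-1.05 ± 0.12) and Slc13a3 (-0.54 ± 0.07) on the lower side. Periportal genes included 8 lower, 6 higher and 7 not passing of 21 (median -0.14), with Igfbp2 (-2.22 ± 0.13), Etnppl (-1.78 ± 0.10), Sult5a1 (-0.95 ± 0.07) and Pigr (-0.79 ± 0.07) lower. In the Cyp2 family, the periportal Cyp2f2 was higher and the pericentral Cyp2e1 did not pass.

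Markers of other liver cells moved in the same comparison. Neutrophil genes were higher for 5 of 7, between -0.12 and 2.74, led by Mpo (2.74 ± 0.22), Camp (2.63 ± 0.30), S100a8 (2.60 ± 0.29) and S100a9 (2.51 ± 0.30), each highest in mouse 2. Stellate cell and fibroblast genes were lower for 8 of 10, between -1.71 and -0.13, with Col1a2 (-1.62 ± 0.11), Col3a1 (-1.52 ± 0.13), Dcn (-1.07 ± 0.09) and Vim (-0.94 ± 0.06). Endothelial genes were lower for 5 of 10 (-1.52 to 0.18; Lyve1 -1.52 ± 0.11), macrophage genes for 4 of 9 (-1.28 to 0.07; Itgax -1.28 ± 0.11) and lymphocyte genes for 2 of 6 (-0.39 to -0.02; Lck -0.39 ± 0.07, Cd3d -0.39 ± 0.07). Of the kidney, intestine and pancreas genes 3 could be tested: Cela1 (3.34 ± 0.08) and Vil1 (0.44 ± 0.10, above background in the control channel on 2 arrays) were higher and Fabp2 (-0.81 ± 0.11) was lower, while the kidney markers Umod, Slc12a1 and Kap and the pancreas markers Cpa1, Prss1 and Pnlip were not tested. The part of these cells in the Cyp2 ratios was not tested.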

How the data were processed

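The authors deposited spot intensities of 5 arrays, read with Agilent Feature Extraction (10.7 in the submitters' processing notes, 10.7.3.1 per the file headers). The log2 ratios of the series table are as the authors deposited them; a comparison with the deposited scanner values showed its direction to be Fra-1hep over control on every array. Its column medians were 0.13, 0.08, 0.04, 0.13 and -0.04. This table and the scanner's log10 ratio of Cy5 over Cy3 (per the file headers) served as alternatives. The labels' protocols set a minimum RNA integrity of 7.8 and a labelled amount of 100 ng.

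Median signals were corrected with normexp (offset 50) and each array was then normalised by loess; control spots and 177 outlier spots had weight 0. Of 55681 probes, 26056 could be named by accession through a RefSeq table (GRCm38.p6). Probes measured on all 5 arrays and flagged as well above background in 1 of the channels on 3 or more of them were kept (28048), and a gene was represented by its brightest one (21493 features). limma 3.58.1 (R 4.3.3; lmFit, eBayes) was fitted with a genotype coefficient (mice 1, swapped array -1) plus an intercept for dye, with Benjamini-Hochberg adjustment over all features. The swapped array thus counts as much as the 4 mice together. The spread is that of the mice, with 3 residual and 4.02 prior degrees of freedom. Named genes had a median standard error of 0.067; precision is limited by the number of arrays. The control pool is 1 control sample. The labels name the mice as separate samples and say no more, so p-values measure the spread between these samples. A gene named with a fold whose channel was below background on all 5 arrays of a group was given as a bound from per-channel values, which can carry dye bias.

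The scripts were tested on simulated data. Promoters were aligned globally with Biopython 1.88 (match 1, mismatch -1, gap opening -2, extension -0.5, free end gaps). All Cyp2 genes, the genes Por, Alas1, Nr1i3, Nr1i2, Hnf4a and the sex-linked genes, and up to 4 genes with the smallest p of each other list were named. Some genes that this rule takes are not reported here. Members and lists were chosen with earlier results of these data known. The plan for probe relatedness assumed protein or probe sequence; promoter identity and probe pairs were used in its place. Alternatives varied the dye term, the arrays, background, normalization, filter, probe choice, control spread and minimum change.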

Additional observations from a re-analysis of the deposited data

Results flagged for a closer look

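Among groups of 4 Fra-1hep mice, 81 genes were screened for a mouse that stood apart from the other 3 by more than the critical gap of Dixon's test, and 7 were found; chance gives about 1 in 20. In the Cyp2 family, Cyp2c55 was lower in mouse 3, at 2.42 (2.425) against 2.58 to 2.61 in the others. Cyp2d40 was lower in mouse 1, at -0.41 against 0.09 to 0.16. Cyp2j5 was higher in mouse 2, at 0.247 against -0.06 to -0.03. Outside the family, Blvrb was lower in mouse 1 (-1.04 against -0.67 to -0.61), Slco1a4 was less reduced in mouse 3 (-1.64 against -2.14 to -2.10), Uty was higher in mouse 2 (0.137 against -0.01 to 0.02) and Ddx3y was lower in mouse 3 (-0.0639 against 0.18 to 0.23).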

How the results depend on the processing

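Under 16 alternatives, of which 15 were planned, 5 of the 14 called Cyp2 genes (Cyp2c55, Cyp2c29, Cyp2g1, Cyp2b9 and Cyp2b10) kept their direction and their side of the threshold in all. Of the others, Cyp2c54 lost its call in 7, Cyp2d13 in 5, Cyp2a22 in 4, Cyp2u1 and Cyp2a12 in 2 each and Cyp2a4 and Cyp2f2 in 1 each, in the same direction. The direction turned in 2 cases: Cyp2c38 was at -0.63 with the dimmest kept probe in place of the brightest, a choice made after seeing the data, and Cyp2d26 was at 0.00128 without the swapped array; the cause was not tested. Leaving out each mouse in turn gave 13 to 17 called Cyp2 genes, 9 to 13 higher and 4 lower, among 4281 to 5489 features called (1710 to 2316 higher, 2571 to 3268 lower); leaving out mouse 1 also leaves 1 slide. In these fits the electron donor and haem list had 3 to 7 called genes, against 7 with all arrays (3 without mouse 4), the regulators 5 to 7, the growth hormone axis 4 to 5, CAR and PXR targets 12 to 13, female-predominant genes 4 to 6, against 7 with all arrays (4 without mouse 4), male-predominant genes 9 to 10, pericentral genes 8 to 10, periportal genes 13 to 15 and metabolic partners 8 to 10.

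Without the swapped array 12 Cyp2 genes were higher and 8 lower, beside 3641 features higher and 4077 lower, and 11 regulators were called. Median centring in place of loess gave 1406 higher features and 3 electron donor and haem genes. With the spread of 5 control mice added, 9 Cyp2 genes were called (6 higher), beside 2846 features (1085 higher, 1761 lower), 1 electron donor and haem gene, 2 regulators, 2 growth hormone genes and 3 female-predominant genes. Against a minimum change of 1.2-fold, 6 Cyp2 genes passed (4 higher, 2 lower), beside 1051 features (332 higher, 719 lower), 0 electron donor and haem genes, 0 regulators, 0 growth hormone genes, 7 CAR and PXR targets, 3 female-predominant, 5 male-predominant, 4 pericentral and 8 periportal genes and 3 metabolic partners. The scanner's own ratios and the deposited table each gave 3 regulators, 2 growth hormone genes and 3 female-predominant genes. Offset 0 gave 4 electron donor and haem genes, 3 regulators and 4 female-predominant genes, and omitting the dye term gave 4 electron donor and haem genes. No paired analysis was possible because the control arm is 1 pool and the swapped array carries no replicate number. Single Cyp2 genes with small fitted changes, close to the threshold, should be read with their arrays; probes near background and probes that may read several family members limit the rest.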
